A study of Rattus norvegicus with 30 samples.

Results

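The genes described here are 10 imprinted regulators of growth, followed in rat testes and in cultured testicular tissue. They are H19 (Entrez Gene 309122), Igf2 (24483), Igf2r (25151), Dlk1 (114587), Plagl1 (25157), Peg3 (103691034), Mest (58827), Cdkn1c (246060), Grb10 (498416) and Snurf (113938), and all 10 were found by identifier among the 17322 genes of the deposited table. The set was chosen partly on values of these libraries: H19 and Igf2 were taken because their levels rose in culture. Their culture levels are therefore described without a test, and the other 8 genes were tested in every comparison that their levels allowed.

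RNA was sequenced from testes of Wistar rats at 6 ages: 8.5 and 14.5 days postpartum (dpp), then 24.5 and 30.5, and last 36.5 and 53.5 dpp. It was also sequenced from tissue dissected at 8.5 dpp and then kept in culture, where 6 days are written D6, 16 days D16, 22 days D22 and 28 days D28. The labels give no genetic change in any group. Explants lay on agarose at the interphase of gas and liquid, in α-MEM with knockout serum replacement, retinol and vitamin E, and the necrotic centre was removed before extraction, so that part of each explant is not in the data. Each group held 3 libraries, and a cultured library pooled 12 explants, cut from at least 3 juvenile males per the methods of the study. D6 tissue has the age of the 14.5 dpp testes, D16 that of 24.5, D22 that of 30.5 and D28 that of 36.5 dpp, but from other animals.

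An imprinted gene is transcribed mainly from the copy inherited from a given parent, as set by methylation marks placed in the germ line. Many of these genes act on growth before and soon after birth, and a shared programme that turns them down as organs mature is known in rodents. Igf2 encodes a paternally expressed growth factor and H19 a maternally expressed non-coding RNA; they are neighbours, and a methylated control region with binding sites for CTCF decides which of them reaches shared enhancers. Igf2r encodes a receptor that carries IGF2 to lysosomes, Dlk1 a membrane protein of the Delta and Notch family, and Plagl1 a zinc finger factor known to bind imprinted loci. Cdkn1c inhibits cyclin-dependent kinases and Grb10 is an adaptor that dampens insulin and IGF receptors. The 2 parental copies were not told apart in these data, so every value below is a total level and says nothing of imprinting itself.

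Levels are in FPKM, fragments scaled by transcript length and by mapped reads, a unit per length in which different genes can be set side by side. Differences between groups are on the log2(FPKM + 1) scale, which understates the change of low genes. A gene was called changed at a limma adjusted p of at most 0.05 when its median FPKM also differed 2-fold or more between groups. Of 30 libraries, 29 were used. The other was a 14.5 dpp testis, labelled an outlier and listed at 0 for every gene, so 14.5 dpp rests on 2 testes. Replicates correlated at 0.965 to 0.985 across genes, which are not independent replicates, and 12520 to 13563 genes per library stood above 0. The read depth behind each value is unknown.

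RefSeq sequences (build GRCr8) are shown for the pair that the culture levels turn on. Both H19 and Igf2 host a microRNA on the minus strand of chromosome 1, and its mature arms are given with the seed, bases 2 to 8, in capitals. Mature microRNAs were not measured here.
miR-675-5p, within H19, chr1:207161800-207161821: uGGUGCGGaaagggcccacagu
miR-675-3p, within H19, chr1:207161766-207161786: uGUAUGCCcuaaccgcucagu
miR-483-5p, within Igf2, chr1:207247903-207247924: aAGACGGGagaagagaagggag
miR-483-3p, within Igf2, chr1:207247865-207247886: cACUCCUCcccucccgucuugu
The 4 seeds differ from each other.

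Promoter windows, from 250 bases before to 50 bases after the annotated start, were given for 8 of the 10 genes. H19 and Cdkn1c had no entry. On both strands, they were searched for GGGGCCCC, the core of the PLAGL1 motif, for GGGCGG, the GC box, and for TATAAA. The GC box can overlap a second copy of itself. The windows of 6 of the 8 genes held a GC box, against 33.1% of 33469 windows of all genes. The PLAGL1 core was in the window of 1 gene, Peg3, and in 0.858% of all windows. TATAAA was in none of the 8 and in 14.2% of all windows. Both Igf2 windows and that of Peg3 are printed 5′ to 3′ with the GC box or the PLAGL1 core in capitals, the former because they belong to the gene with a culture level above every testis, the latter for its motif.
Igf2 upstream start, minus strand, chr1:207253931-207254230: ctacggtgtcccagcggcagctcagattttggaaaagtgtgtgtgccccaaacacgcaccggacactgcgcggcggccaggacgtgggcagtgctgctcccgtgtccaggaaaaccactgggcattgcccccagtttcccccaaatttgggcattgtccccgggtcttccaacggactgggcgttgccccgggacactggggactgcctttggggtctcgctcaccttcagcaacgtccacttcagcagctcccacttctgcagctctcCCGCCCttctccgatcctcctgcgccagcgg
Igf2 downstream start, minus strand, chr1:207250426-207250725: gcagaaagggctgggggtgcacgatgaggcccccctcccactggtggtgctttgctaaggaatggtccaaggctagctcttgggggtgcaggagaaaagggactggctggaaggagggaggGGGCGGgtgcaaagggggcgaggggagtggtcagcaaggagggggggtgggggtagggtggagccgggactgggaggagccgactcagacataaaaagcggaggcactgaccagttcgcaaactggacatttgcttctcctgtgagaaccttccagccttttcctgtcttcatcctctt
Peg3, plus strand, chr1:76130744-76131043: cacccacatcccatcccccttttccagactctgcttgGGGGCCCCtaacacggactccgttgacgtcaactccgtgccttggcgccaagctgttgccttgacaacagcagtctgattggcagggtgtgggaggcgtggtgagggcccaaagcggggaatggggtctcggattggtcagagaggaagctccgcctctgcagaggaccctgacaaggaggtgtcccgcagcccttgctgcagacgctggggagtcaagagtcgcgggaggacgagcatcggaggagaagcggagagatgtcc
A match in a window is a description of its letters and not a binding site.

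H19 was the most abundant of the 10 genes in every culture group, and on the log2 scale it fell furthest of the 9 genes tested between 8.5 and 53.5 dpp. The testes of 8.5 dpp stood at 113, 123 and 102 FPKM, those of 14.5 dpp at 25.2 and 12.7, and those of 24.5 dpp at 2.14, 1.55 and 3.96. From 30.5 dpp on, the 9 testes lay between 0.323 and 0.967 FPKM. Thus no testis overlapped with the testes of a younger group until 30.5 dpp, and the levels of 30.5 and 36.5 dpp overlapped. Against 8.5 dpp, the difference was -2.58 at 14.5 dpp (standard error 0.26, limma adjusted p = 7.77e-06) and -6.24 at 53.5 dpp (standard error 0.23, limma adjusted p = 3.73e-12).

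In culture, H19 stood at 309, 324 and 340 FPKM on D6 and at 490, 365 and 348 on D16. D22 libraries had 428, 248 and 215 FPKM and D28 libraries 307, 172 and 213. Every cultured library lay above every testis, the dissected age of 8.5 dpp included. The ratio of mean levels to 8.5 dpp was 2.88 for D6, 3.56 for D16, 2.64 for D22, 2.05 for D28. The ratio to 14.5 dpp was 17.1, 21.2, 15.7 and 12.2 at the same times, and that of D28 to 36.5 dpp was 287. The ratio of 287 was not scaled to cell markers. The 11 Sertoli cell markers summed to 568 to 715 FPKM at 36.5 dpp and 3940 to 4744 at D28. Each comparison with 14.5 dpp rests on 2 testes: the D28 difference of 3.57 on the log2 scale was 4.04 without replicate 1 of 14.5 dpp and 3.10 without replicate 2. By mean FPKM, H19 ranked 489 among 17322 genes at 8.5 dpp, 52 at D16 and 10273 at 36.5 dpp. From D6 to D28 the difference was -0.53 on the log2 scale. The order of the group means was D16, D6, D22, D28 and 8.5 dpp, and in that order D6 overlapped with D22 and D22 with D28.

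Igf2 was lower than H19 at 8.5 dpp and higher from 24.5 dpp on. Its levels were 20.5, 20.3 and 19.3 FPKM at 8.5 dpp, 7.48 and 8.53 at 14.5 dpp, 10.2, 8.18 and 12.6 at 24.5 dpp and 2.58, 1.64 and 2.16 at 53.5 dpp. The testes of 14.5 and 24.5 dpp overlapped, while no testis of 53.5 dpp reached the lowest of any younger group. Against 8.5 dpp, Igf2 differed by -1.23 on the log2 scale at 14.5 dpp (standard error 0.20, limma adjusted p = 0.000271) and by -2.76 at 53.5 dpp (standard error 0.17, limma adjusted p = 9.57e-10). Its differences of -1.57 at 30.5 dpp and -1.94 at 36.5 dpp were also called, but each turned to a small difference above 0 (0.14 and 0.01) when libraries were scaled to the Sertoli cell markers, and that at 53.5 dpp went to -0.55, not called. At 24.5 dpp the difference of -0.91 was called only without replicate 3 of that age (-1.05), without the ratio or under quantile normalization (-1.08).

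In culture, Igf2 stood at 46.0, 40.2 and 46.7 FPKM on D6 and at 104, 78.9 and 86.0 on D16. D22 libraries had 104, 63.5 and 51.5 FPKM and D28 libraries 95.7, 45.3 and 56.3. Every cultured library lay above every testis. The ratio of mean levels to 8.5 dpp was 2.21 for D6, 4.47 for D16, 3.64 for D22, 3.28 for D28, and that to 14.5 dpp was 5.54, 11.2, 9.10 and 8.22. Set against the testis of the same age, the ratio was 8.68, 11.9 and 14.4 for the 3 later times. D16, D22 and D28 overlapped with each other, and from D6 to D28 the difference was 0.49.

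**Figure D1:**
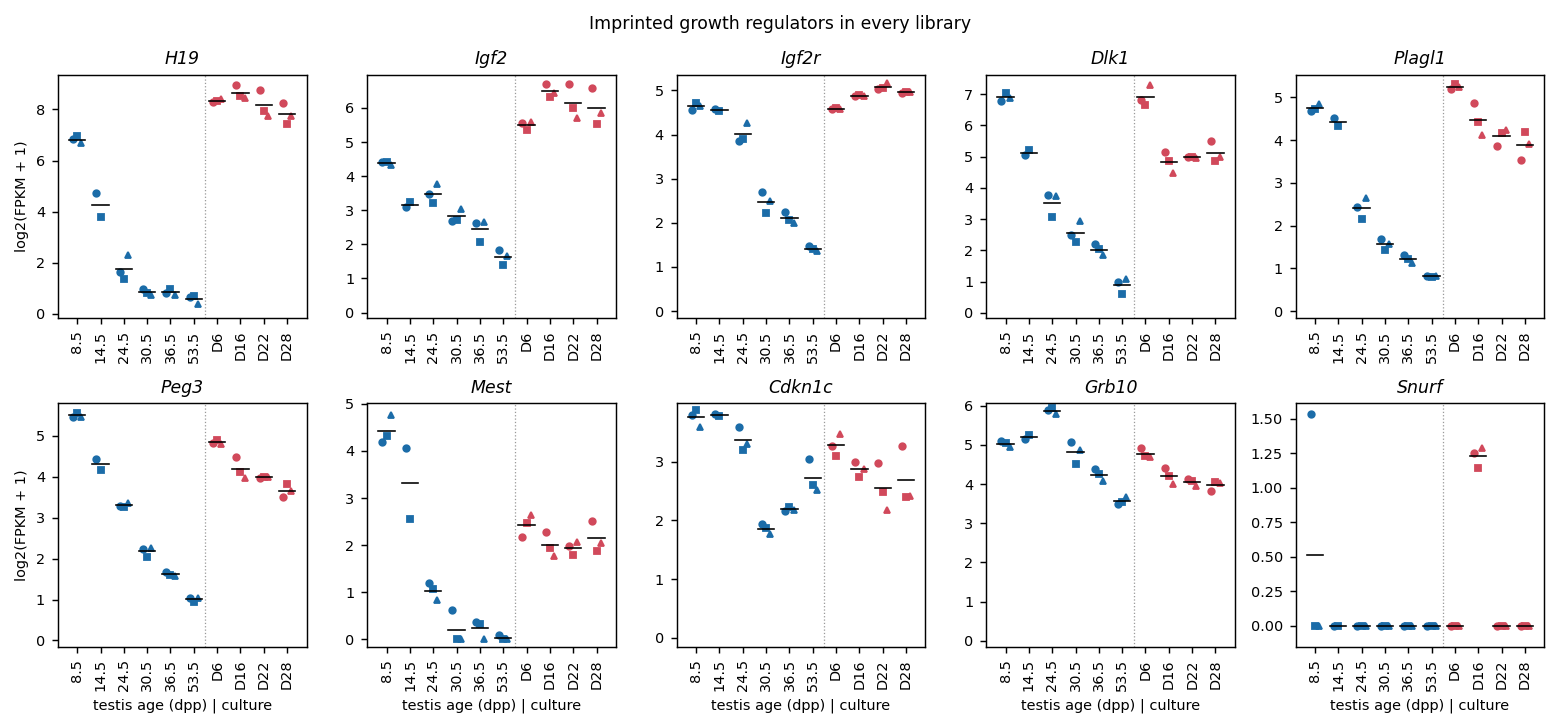
Level of the 10 genes in log2(FPKM + 1) in each of 29 libraries, with testes in blue by age in dpp and cultured tissue in red by days of culture. Circles, squares and triangles are replicates 1, 2 and 3, short lines are group means of the log2 values, and each panel has its own scale. H19 and Igf2 lie above every testis in all cultured libraries, Igf2r overlaps with its 8.5 dpp level at D6 and exceeds it later, and Mest and Cdkn1c lie below it.

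The 2 neighbours did not keep a fixed ratio. The FPKM of H19 over that of Igf2 lay between 5.27 and 6.05 at 8.5 dpp, at 3.37 and 1.49 in the testes of 14.5 dpp, and between 0.0925 and 0.370 from 24.5 dpp on. In culture it lay between 6.71 and 8.05 at D6, 4.04 and 4.71 at D16, 3.90 and 4.19 at D22, and 3.21 and 3.80 at D28. The D6 range lay above that of 8.5 dpp, and the ranges of D16 and D28 did not overlap. The ratio of Igf2r to Igf2 was 1.10 to 1.25 at 8.5 dpp, 2.60 to 3.08 at 14.5 dpp and 0.272 to 0.680 over the cultured libraries. These ratios hold the levels on which H19 and Igf2 were chosen, so they are descriptions.

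**Figure D2:**
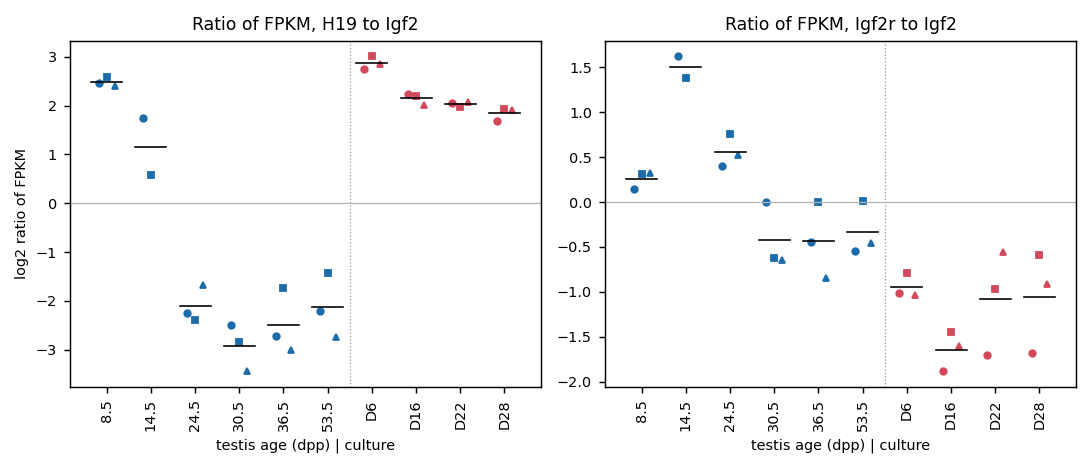
Log2 ratio of FPKM of H19 to Igf2 (left) and of Igf2r to Igf2 (right) in each library, with testes in blue, cultured tissue in red, replicates as circles, squares and triangles, and lines at the group means. H19 exceeds Igf2 at 8.5 and 14.5 dpp and in culture and lies below it from 24.5 dpp on.

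H19 and Igf2 were highest in the same cultured libraries. Replicate 1 had the highest level of both at D16, D22 and D28. Dlk1 and Cdkn1c were highest there at each of these times too. Peg3, Plagl1, Mest and Grb10 were so at only some of them, and Igf2r at none. At D28 the other 2 libraries lay at 45.3 and 56.3 FPKM for Igf2 and at 172 and 213 for H19. The summed level of 7 endothelial markers was also highest in replicate 1 at these times, at 108 FPKM against 84.2 and 85.9 at D16, at 116 against 70.8 and 65.7 at D22 and at 99.1 against 58.8 and 72.8 at D28. The interstitial mesenchyme markers were highest in replicate 1 as well, at 676 FPKM against 524 and 474 at D16, at 630 against 547 and 478 at D22 and at 572 against 440 and 537 at D28. Other lists varied with time. Peritubular markers were highest in replicate 1 at D16 but lowest at D22 (537 FPKM against 688 and 649) and D28 (583 against 611 and 746). Macrophage markers were lowest in replicate 1 at D16 and highest at D22 and D28, and Leydig cell markers were highest there at D28. The endothelial list stood at 50.9 to 53.4 FPKM at 8.5 dpp, 31.9 to 38.3 at 14.5 dpp and 2.33 to 4.07 at 53.5 dpp, and none of the 7 was at 0 in a whole group. The part of these cells in the levels of H19 and Igf2 was not tested. In whole tissue, more cells of a type and more RNA per cell cannot be told apart, which holds for all genes here.

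Igf2r, the clearance receptor, is expressed from the maternal copy. It stood at 22.7, 25.2 and 24.2 FPKM at 8.5 dpp, 23.0 and 22.2 at 14.5 dpp, 13.5, 13.9 and 18.1 at 24.5 dpp and 1.57 to 1.77 at 53.5 dpp. Its first 2 ages overlapped, and the level then dropped at every later age, with an overlap between 30.5 and 36.5 dpp. The difference from 8.5 dpp was -0.08 at 14.5 dpp (95% interval -0.39 to 0.22) and -3.23 at 53.5 dpp (standard error 0.13, limma adjusted p = 6.61e-12). Those of -2.18 at 30.5 dpp and -2.54 at 36.5 dpp were called, but not on scaling to the Sertoli cell markers (-0.50 and -0.64).

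Cultured tissue did not follow this fall. Igf2r stood at 22.8, 23.3 and 22.9 FPKM on D6 and at 28.3, 28.8 and 28.3 on D16. On D22 it had 31.7, 32.4 and 34.99 FPKM and on D28 29.8, 30.1 and 30.04. All libraries of D16, D22 and D28 lay above all testes. The differences from 14.5 dpp, 0.32, 0.53 and 0.39 for D16, D22 and D28 (standard error 0.08, limma adjusted p from 0.000967 to 0.013), passed the adjusted p but not the ratio of 2. Between D6 and D28 it was 0.37 (standard error 0.06, limma adjusted p = 0.00238), again below the ratio. Against testes of the same age, Igf2r was higher by 0.88, 2.62 and 2.85 in order of time, and all 3 were called, but none on scaling to the Sertoli cell markers (0.0079, 0.38 and 0.38). The call at D16 was also lost without replicate 1 (0.81) or replicate 2 (0.82) of 24.5 dpp.

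Dlk1, expressed from the paternal copy and known in immature and progenitor cells, was abundant at 8.5 dpp. Its levels were 109, 130 and 116 FPKM at 8.5 dpp, 32.2 and 35.8 at 14.5 dpp, 12.6, 7.32 and 12.4 at 24.5 dpp and 0.985, 0.539 and 1.12 at 53.5 dpp. No group overlapped with the next in age. The difference from 8.5 dpp was -1.77 at 14.5 dpp (standard error 0.23, limma adjusted p = 4.96e-05) and -6.00 at 53.5 dpp (standard error 0.20, limma adjusted p = 1.41e-12).

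At D6, Dlk1 still stood at 111, 98.9 and 156 FPKM. At D16 it was at 34.5, 28.4 and 21.5. D22 libraries had 30.8, 30.5 and 29.9 FPKM and D28 libraries 44.2, 28.2 and 30.6. The D6 libraries thus overlapped with the 8.5 dpp testes and no later cultured library did. The D6 level was above that of 14.5 dpp, by 1.79 (standard error 0.21, limma adjusted p = 0.00609). Later differences from 14.5 dpp did not pass the test, with -0.29 at D16 (95% interval -0.76 to 0.18) and -0.01 at D28 (95% interval -0.48 to 0.46). Against testes of the same age, Dlk1 was higher by 1.32, 2.41 and 3.09 in order of time, calls that were lost on scaling to the Sertoli cell markers (0.45, 0.16 and 0.63).

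Plagl1, a paternally expressed zinc finger factor, stood at 24.8, 25.5 and 27.8 FPKM at 8.5 dpp, 22.0 and 19.1 at 14.5 dpp, 4.40, 3.47 and 5.26 at 24.5 dpp and 0.755 to 0.784 at 53.5 dpp. At D6 it reached 35.5, 38.7 and 36.7 FPKM, above all testes. It then declined, to 28.1, 20.5 and 16.5 on D16, 13.6, 16.9 and 17.9 on D22 and 10.5, 17.2 and 14.2 on D28. The rise at D6 over 8.5 dpp, 0.49 (standard error 0.18, limma adjusted p = 0.0417), did not reach the ratio of 2, nor did that over 14.5 dpp, 0.82 (limma adjusted p = 0.0132). The fall from D6 to D28, -1.37 (standard error 0.20, limma adjusted p = 0.000831), was called. Against 8.5 dpp, the D28 difference of -0.88 missed the ratio and was called without D28 replicate 2 (-1.03). Against testes of the same age the differences were 2.06, 2.53 and 2.66 at D16, D22 and D28, of which the last 2 were not called on scaling to the Sertoli cell markers (0.50 each).

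Peg3, a paternally expressed zinc finger gene, declined both in vivo and in culture. Its levels were 43.4, 46.3 and 43.4 FPKM at 8.5 dpp, 20.7 and 17.1 at 14.5 dpp, 8.64 to 9.32 at 24.5 dpp and 0.933 to 1.07 at 53.5 dpp. In culture they were 27.2, 29.03 and 27.1 on D6, 21.5, 16.3 and 14.8 on D16, 14.7, 15.1 and 14.8 on D22 and 10.4, 13.1 and 11.7 on D28. All culture groups lay below 8.5 dpp, and D6 lay between 8.5 and 14.5 dpp. The difference from 8.5 dpp grew from -0.66 at D6 to -1.84 at D28 (standard error 0.12, limma adjusted p = 2.98e-08), and that between D6 and D28 was -1.18 (standard error 0.13, limma adjusted p = 0.000135). Against testes of the same age, the differences of 1.80 at D22 and 2.05 at D28 were called but turned to -0.35 and -0.23 on scaling to the Sertoli cell markers. That of 0.89 at D16 missed the ratio and was called without D16 replicate 2 (0.93) or replicate 3 (0.99).

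Mest, which encodes a protein of the hydrolase family and is expressed from the paternal copy, was the only gene of the 8 called lower at D6 against 8.5 dpp under the ratio of 2. It stood at 17.2, 18.8 and 26.3 FPKM at 8.5 dpp, 15.8 and 4.88 at 14.5 dpp, 1.28, 1.09 and 0.797 at 24.5 dpp, and at or under 0.542 from 30.5 dpp on, with 5 of those 9 testes listed at 0. In culture it was at 3.52, 4.56 and 5.25 on D6, 3.87, 2.82 and 2.41 on D16, 2.94, 2.44 and 3.19 on D22 and 4.75, 2.70 and 3.15 on D28. Every cultured library lay below every 8.5 dpp testis, and the 2 testes of 14.5 dpp stood far apart. The D6 difference from 8.5 dpp was -1.99 (standard error 0.20, limma adjusted p = 4.13e-06), and that at D28 was -2.27. From D6 to D28 it was -0.28 (95% interval -0.69 to 0.14, limma adjusted p = 0.314). The calls against 14.5 dpp, with differences of -1.32, -1.37 and -1.16 in order of time and a limma adjusted p of the F test of 0.0499, were lost without replicate 1 of 14.5 dpp (-0.56, -0.62 and -0.40). They were also lost without any single one of the D16 or D22 libraries, or of D28 replicates 2 and 3, and with a pseudocount of 0.1, no filter or quantile normalization. A call at D6 appeared without 14.5 dpp replicate 2 (-1.64). In vivo, the difference of -1.11 at 14.5 dpp missed the ratio and was called without that replicate 1 (-1.86) or without replicate 1 (-1.23) or 2 (-1.16) of 8.5 dpp.

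Cdkn1c, the maternally expressed inhibitor of the cell cycle, followed another course. It stood at 12.9, 13.8 and 11.1 FPKM at 8.5 dpp, 13.05 and 12.7 at 14.5 dpp, 11.1, 8.17 and 8.91 at 24.5 dpp, 2.40 to 2.82 at 30.5 dpp, 3.47 to 3.67 at 36.5 dpp and 7.27, 5.07 and 4.76 at 53.5 dpp. The lowest age was thus 30.5 dpp, and no testis of that age overlapped with 53.5 dpp. In culture it was at 8.59, 7.58 and 10.1 on D6, 7.01, 5.66 and 6.36 on D16, 6.91, 4.603 and 3.52 on D22 and 8.59, 4.29 and 4.32 on D28, so every cultured library lay below every testis of 8.5 and 14.5 dpp. Against 14.5 dpp the difference was -0.92, -1.25 and -1.10 in order of time (standard error 0.28, limma adjusted p from 0.0072 to 0.0297), and all 3 were called. These calls were lost without either testis of 14.5 dpp or without D22 replicate 2, that at D16 also without D16 replicate 2 (-0.86) or after quantile normalization (-0.85) and that at D28 also without D28 replicate 2 (-0.96). In vivo, the difference of -1.91 at 30.5 dpp went to -0.34, not called, and those of -1.57 at 36.5 dpp and -1.04 at 53.5 dpp turned to 0.33 and 1.40 on scaling to the Sertoli cell markers. Against 8.5 dpp, the call at D16 (-0.89) was lost without replicate 1 (-0.87) or 2 (-0.82) of 8.5 dpp or D16 replicate 2 (-0.82) or with libraries scaled to the same summed FPKM (-0.80), and that at D28 (-1.07) without D28 replicate 2 (-0.92). At D22 the difference from 30.5 dpp, 0.69, was called only without D22 replicate 3 (0.88) or without the ratio.

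Grb10, the adaptor, peaked in FPKM at 24.5 dpp. Its levels were 33.3, 32.4 and 29.8 FPKM at 8.5 dpp, 34.4 and 37.4 at 14.5 dpp, 58.1, 60.3 and 54.3 at 24.5 dpp and 10.3, 10.5 and 11.7 at 53.5 dpp. No other age overlapped with 24.5 dpp. The difference of 24.5 from 8.5 dpp was 0.84 (standard error 0.13, limma adjusted p = 3.48e-05), below the ratio of 2, and that of 53.5 dpp was -1.47 (limma adjusted p = 3.65e-08), which turned to 1.07 on scaling to the Sertoli cell markers. In culture no peak in FPKM was seen. Levels were 29.2, 25.4 and 25.0 on D6, 20.3, 17.5 and 14.9 on D16, 16.6, 15.8 and 14.5 on D22 and 13.2, 15.7 and 15.2 on D28. Grb10 was lower than at 14.5 dpp with differences of -0.999, -1.15 and -1.24 in order of time (standard error 0.13, limma adjusted p from 0.000132 to 0.000602). The call at D16 was lost without 14.5 dpp replicate 2 (-0.94) or D16 replicate 3 (-0.89). Against 24.5 dpp the D16 difference was -1.67 (standard error 0.13, limma adjusted p = 4.63e-05). Against 8.5 dpp, that of -0.98 at D22 was called, but not without replicate 1 of 8.5 dpp (-0.95), and neither it (-0.88) nor that of -1.07 at D28 (-0.99) was called with libraries scaled to the same summed FPKM.

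Snurf, which lies on a transcript shared with Snrpn, was listed at 1.38, 1.21 and 1.44 FPKM at D16, at 1.89 in replicate 1 of 8.5 dpp and at 0 in the other 25 libraries. Snrpn was listed at 0 in all 9 testes from 30.5 dpp on and at or under 0.291 FPKM elsewhere. How reads were split between the pair is uncertain, and an exact 0 can be a failed estimate: Col1a2, a collagen gene that fibroblasts use, is listed at 0 in all 29 libraries. Snurf passed the filter on low values only through D16, so its calls at D16 against 14.5 and 24.5 dpp had to appear and support nothing. It was not tested in vivo. Its calls moved with single 8.5 dpp libraries, appearing at D16 without replicate 1 and at D22 and D28 without replicate 2 or 3. No fold change is given against listed zeros.

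In vivo, the 10 genes were compared with 8.5 dpp to follow their course through the first wave of spermatogenesis. Snurf did not pass the filter. Of the 9 others, H19, Igf2, Dlk1 and Peg3 were called lower at 14.5 dpp, 4 genes where 6.32% of 12531 genes were called lower. At 24.5 dpp 5 were lower, namely H19, Dlk1, Peg3, Plagl1 and Mest (background 23.8%). At 30.5 and at 36.5 dpp 8 were lower, all but Grb10, against backgrounds of 38.2% and 43.4%, though on scaling to the Sertoli cell markers Igf2 (both ages) and Cdkn1c (36.5 dpp) turned to above 0. At 53.5 dpp all 9 were lower, against 50.2%. On that scaling Cdkn1c (1.40, limma adjusted p = 7.83e-06) and Grb10 (1.07, limma adjusted p = 1.82e-05) turned to above 0 at 53.5 dpp. So did Grb10 at 30.5 dpp (1.61, limma adjusted p = 2.35e-07) and 36.5 dpp (1.31, limma adjusted p = 2.14e-06). At 24.5 dpp Grb10 was called higher on that scaling (limma adjusted p = 6.32e-06). Under the ratio of 2 and without that scaling, none of the 9 was called higher at any age. The median difference of the 9 was -1.11 at 14.5 dpp and -3.93 at 53.5 dpp, beside 0.05 and -0.74 over all genes tested. Cdkn1c at 53.5 dpp was not called after quantile normalization (-0.30, limma adjusted p = 0.0663).

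This decline ran beside a change in the cells of the testis, as read from marker lists. Summed FPKM of 6 spermatid markers rose from 3.64 to 6.57 at 8.5 dpp to between 11500 and 16941 at 53.5 dpp, and that of 7 spermatocyte markers rose from 8.88 to 10.2 to between 905 and 1039 at 24.5 dpp. Over the same ages the 9 interstitial mesenchyme markers fell from 982 to 1037 to between 11.4 and 20.9, the 7 peritubular markers from 1822 to 1919 to between 101 and 128, and the 11 Sertoli cell markers from 1565 to 1672 to between 341 and 469. Col1a2, 1 of the 9 mesenchyme markers, was listed at 0 in every library and so adds nothing to that sum. Scaling each library to the Sertoli cell markers moved the median of all genes at 53.5 dpp from -0.74 to 1.20, and under it H19, Dlk1, Peg3, Plagl1 and Mest had differences of -1.66 or lower from 30.5 dpp on. In culture, Leydig cell markers summed to 107 to 145 FPKM, against 231 to 374 at 14.5 dpp, and macrophage markers to 17.1 to 34.9. The part of cell makeup in the decline was not tested.

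**Figure D3:**
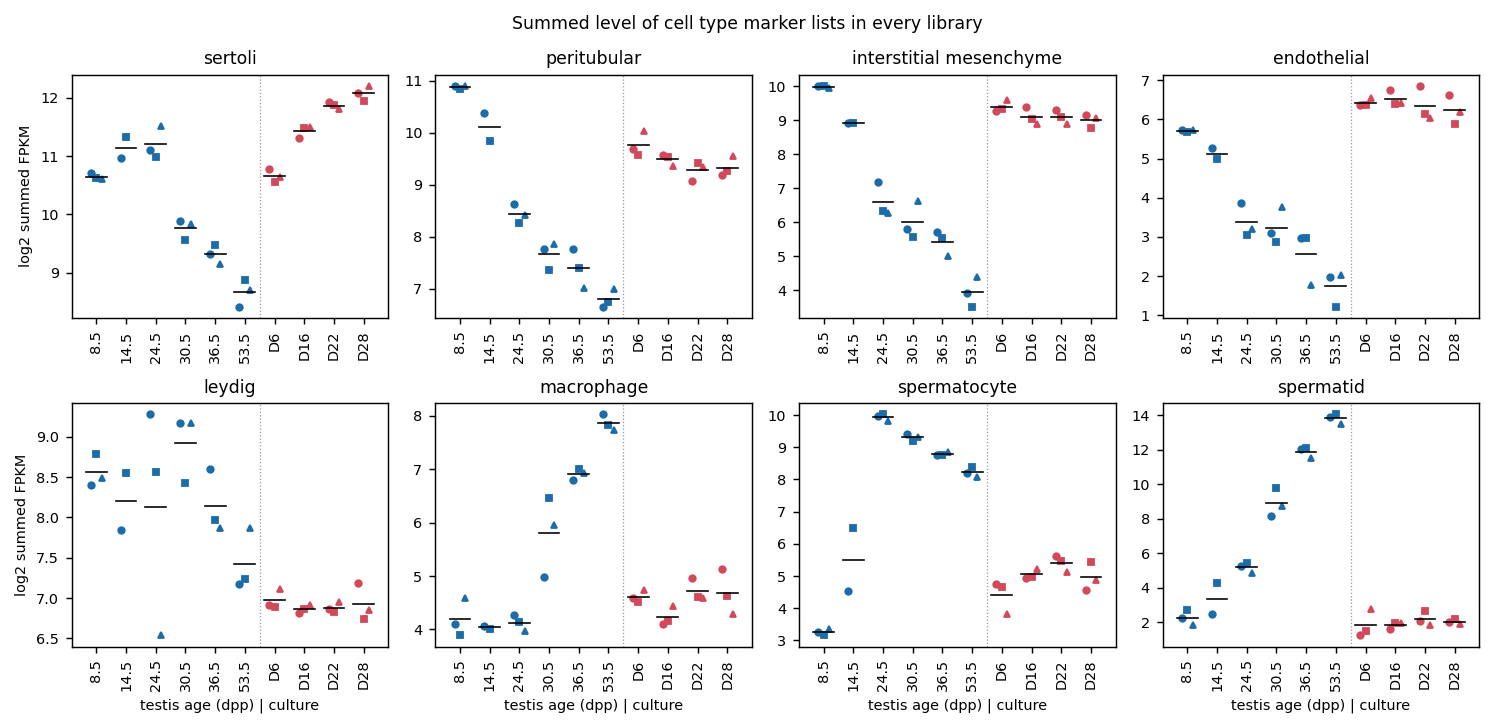
Log2 of the summed FPKM of 8 marker lists in each library, with testes in blue by age in dpp, cultured tissue in red, replicates as circles, squares and triangles, and lines at the means of the log2 values. Spermatid markers climb in vivo, spermatocyte markers climb to 24.5 dpp and then decline, and both stay low in culture. Mesenchyme and endothelial markers are higher in every cultured library than in testes from 24.5 dpp on. The sum of the Sertoli cell markers climbs with time in culture, though only 2 of the 11 were called higher from D6 to D28 (median difference 0.02).

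Against the testes of the age at dissection, cultured tissue shows what changed from the starting point. Snurf passed the filter only through D16 and is left out of these counts. Among the 7 other genes tested, Mest was called lower at D6, 1 gene where 16.1% of 11539 genes were called in either direction. At D16 Mest, Dlk1, Peg3 and Cdkn1c were lower, 4 genes against a background of 22.1%. At D22 and D28 Grb10 joined them, 5 genes against 23.5% and 24.0%. None of the 7 was called higher. The median difference at D28, with Snurf included, was -1.07, beside 0.04 over all genes. Igf2r had differences of 0.24, 0.45 and 0.31 for the later times, with limma adjusted p from 4.62e-05 to 0.00546, short of the ratio. H19 and Igf2, set beside these by their choice, had differences of 0.99 and 1.60 at D28.

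The testes of 14.5 dpp are those that D6 tissue matches in age, and later cultured tissue was set against them too, as the study did. At D6, 7 of the 8 genes passed the filter and Dlk1 was called higher, 1 gene against a background of 7.94%. At D16 Cdkn1c, Grb10 and Mest were called lower, 3 of 7 genes with Snurf left out, against 11.9%. At D22 and D28 the same 3 were lower, against 12.9% and 13.6%. These backgrounds are of genes called in either direction, and 6.00% of genes were called lower at D28. Peg3 differed by -0.65 at D28 (limma adjusted p = 0.00921), short of the ratio. These comparisons share the 2 testes of 14.5 dpp, which differ in age-linked markers: the spermatocyte list summed to 23.2 and 89.5 FPKM, and Mest and H19 were higher in the testis with the lower sum.

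Beside testes of the same age, Dlk1, Igf2r, Plagl1 and Mest were called higher in culture at each time, calls that scaling to the Sertoli cell markers removed except for Plagl1 at D16, while the direction of Peg3 and Cdkn1c depended on the scaling. At D16 against 24.5 dpp, the genes called were Dlk1, Igf2r, Plagl1 and Mest, higher, and Grb10, lower, 5 of 7 genes with Snurf left out, against a background of 43.6%. At D22 against 30.5 dpp, Peg3, Dlk1, Igf2r, Plagl1 and Mest were called higher, 5 of 7 genes that passed the filter, against 65.0%, with Peg3 turning negative on scaling to the Sertoli cell markers. The same 5 of 7 were higher at D28 against 36.5 dpp, against 70.3%, again with Peg3 negative on that scaling. The backgrounds beside testes of the same age are of genes called in either direction. The median difference at D28 was 2.05, beside 0.64 over all genes. On scaling to the Sertoli cell markers, which moved the median of all genes at D28 to -1.53, the calls over the 3 comparisons went from 16 to 8, Snurf at D16 being 1 of each. Plagl1 at D16 (1.20) was the only other gene still called higher, and Grb10 and Cdkn1c were called lower at all 3 times. Under that scaling Dlk1 had differences of 0.45, 0.16 and 0.63 in order of time, Igf2r of 0.0079, 0.38 and 0.38, and Mest of 0.32, 0.82 and 0.80, none of them called. Plagl1 was at 0.50 at both D22 and D28, not called. Spermatid markers summed to 2888 to 4364 FPKM at 36.5 dpp and to 3.66 to 4.47 at D28, and Sertoli cell markers to 568 to 715 and 3940 to 4744. Prm1, a protamine gene that defines spermatids, was listed at 0 in all cultured libraries. The part of these cells in the differences was not tested.

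**Figure D4:**
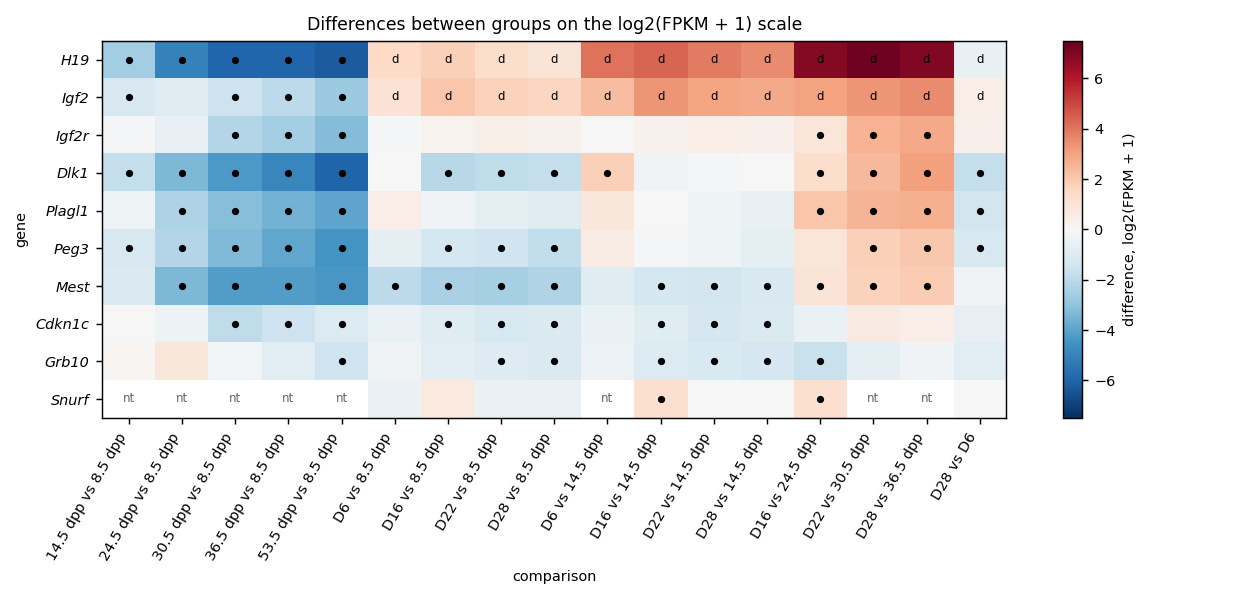
Difference between groups on the log2(FPKM + 1) scale for each gene (rows) and comparison (columns), red where the first group is higher and blue where it is lower. Black dots mark called differences, the letter d marks values of H19 and Igf2 that are described without a test, and nt marks a gene that did not pass the filter on low values. From 30.5 dpp on the 9 genes tested in vivo are blue, and the columns of the same age in culture and testis are mostly red; on scaling to the Sertoli cell markers Igf2, Cdkn1c and Grb10 in vivo, and Peg3 and Cdkn1c beside testes of the same age, change sign.

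Over the time in culture, the genes parted. From D6 to D28, Dlk1 (-1.80), Plagl1 (-1.37) and Peg3 (-1.18) were called lower, 3 of the 7 genes tested beside Snurf, which was listed at 0 at both times. The background was 5.69% of genes called in either direction. Grb10 fell by 0.81 (standard error 0.12, limma adjusted p = 0.000828) without reaching the ratio. Leaving out any library of the 4 culture groups left the number of calls at 3. This span matches 14.5 to 36.5 dpp in age, so the change in culture was set against that in vivo. The difference between the changes passed the test for Igf2r (2.83, standard error 0.13), Mest (2.80, standard error 0.50), Plagl1 (1.83), Peg3 (1.52), Dlk1 (1.301) and Cdkn1c (1.02). In each the change in culture lay above that in vivo, 6 of 7 genes against a background of 76.5% in either direction. The difference for Cdkn1c was 0.50 after quantile normalization (limma adjusted p = 0.177). For Grb10 it was 0.15 (95% interval -0.22 to 0.53), and the median over all genes was 0.63. Scaling to the Sertoli cell markers was not applied to this comparison of time courses.

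The other imprinted genes were taken as a list. Of 55 listed, 45 were found and 34 passed the filter at D28 against 14.5 dpp, of which 1 was called higher (background 7.64%) and 5 lower (background 6.00%). The median difference of the 34 was -0.30, beside -0.08 over all genes. Dcn, which encodes the matrix proteoglycan decorin, was at 98.3 and 104 FPKM at 14.5 dpp and at 201 to 224 at D28, a difference of 1.08 (standard error 0.17, limma adjusted p = 0.00116). The testes of 8.5 dpp, the age at dissection, had 201 to 232 FPKM of Dcn and overlapped with D28. Nnat, which encodes the membrane protein neuronatin, stood at 31.3 and 11.7 FPKM at 14.5 dpp and at 4.55 to 7.08 at D28, a difference of -1.61 (standard error 0.32, limma adjusted p = 0.00341) that ranged from -2.28 to -0.94 over the alternatives and stayed called. At 8.5 dpp it was at 45.5 to 66.2 FPKM. Sfmbt2, a Polycomb group gene, and Atp10a, a phospholipid flippase, were lower, at -0.82 and -0.73 on the log2 scale, the former not called without 14.5 dpp replicate 2 (-0.57). Mean levels at 8.5 dpp and D28 were 0.778 and 1.25 FPKM for Sfmbt2 and 1.298 and 1.297 for Atp10a, with overlapping libraries. The other 2 called lower were Zim1 and Ddc, named after their values were seen. In vivo, 25 of 37 were called lower (background 50.2%) and 6 higher (background 23.7%) at 53.5 dpp against 8.5 dpp. Their median was -1.32, beside -0.74 over all genes.

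In the list of IGF pathway genes, 18 of the 21 found passed the filter at D28 against 14.5 dpp, 1 was called higher (background 7.64%) and 3 lower (background 6.00%). The gene called higher was Igfbp3, the main carrier of IGF in serum. It stood at 28.7 and 37.1 FPKM at 14.5 dpp, 298 to 328 at D6 and 342 to 554 at D28, a D28 difference of 3.64 (standard error 0.26, limma adjusted p = 2.07e-05). No cultured library of these times overlapped with the testes of 8.5 dpp, at 64.6 to 73.1 FPKM. Igf1, the other IGF ligand, went from 16.0 and 25.4 to between 6.99 and 11.2 FPKM (-1.04, standard error 0.29, limma adjusted p = 0.0169), the opposite direction to Igf2. That call was lost without either testis of 14.5 dpp (-1.36 and -0.73), without D16 replicate 2, any D22 library or D28 replicate 1 (-0.86) or 3 (-1.10), and with a pseudocount of 0.1, no filter, quantile normalization or the replicate block. Igf2bp1, an RNA-binding protein that attaches to Igf2 transcripts, and Lin28a, which blocks let-7 processing, were lower, at -0.87 and -0.75, the former not called without 14.5 dpp replicate 2 (-0.68) or after quantile normalization (-0.80). Mean levels at 8.5 dpp and D28 were 1.96 and 3.34 FPKM for Igf2bp1 and 1.06 and 0.780 for Lin28a. The median of the 18 was -0.08, as was that of all genes. In vivo 18 of 19 were called lower at 53.5 dpp against 8.5 dpp (background 50.2%).

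Genes of the imprint maintenance list, which also holds de novo DNA methyltransferases, were called lower or not called at D28 against 14.5 dpp. Of 17 found, 14 passed the filter at D28 against 14.5 dpp, 4 were called lower (background 6.00%) and none higher (background 7.64%), with a median of -0.50 beside -0.08 over all genes. Against 8.5 dpp, 3 were called lower and 1 higher at D28, and against 36.5 dpp 3 lower and 7 higher. Uhrf1, which brings the maintenance methyltransferase to newly copied DNA, fell from 17.97 and 19.2 FPKM to between 3.17 and 5.15 (-1.93, standard error 0.34, limma adjusted p = 0.00181), a call lost without either testis of 14.5 dpp (-1.88 and -1.98). Ezh2, the Polycomb methyltransferase, fell by 1.35 (standard error 0.18) and Dnmt3b, a de novo DNA methyltransferase, by 1.02 (standard error 0.13), to a mean of 7.45 FPKM that lay above the 4.03 of 8.5 dpp, the latter not called without 14.5 dpp replicate 2 (-0.93) or after quantile normalization (-0.94). The other gene was Dnmt1, named after its values were seen. These genes are also known to be high in dividing cells, and methylation was not measured.

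**Figure D5:**
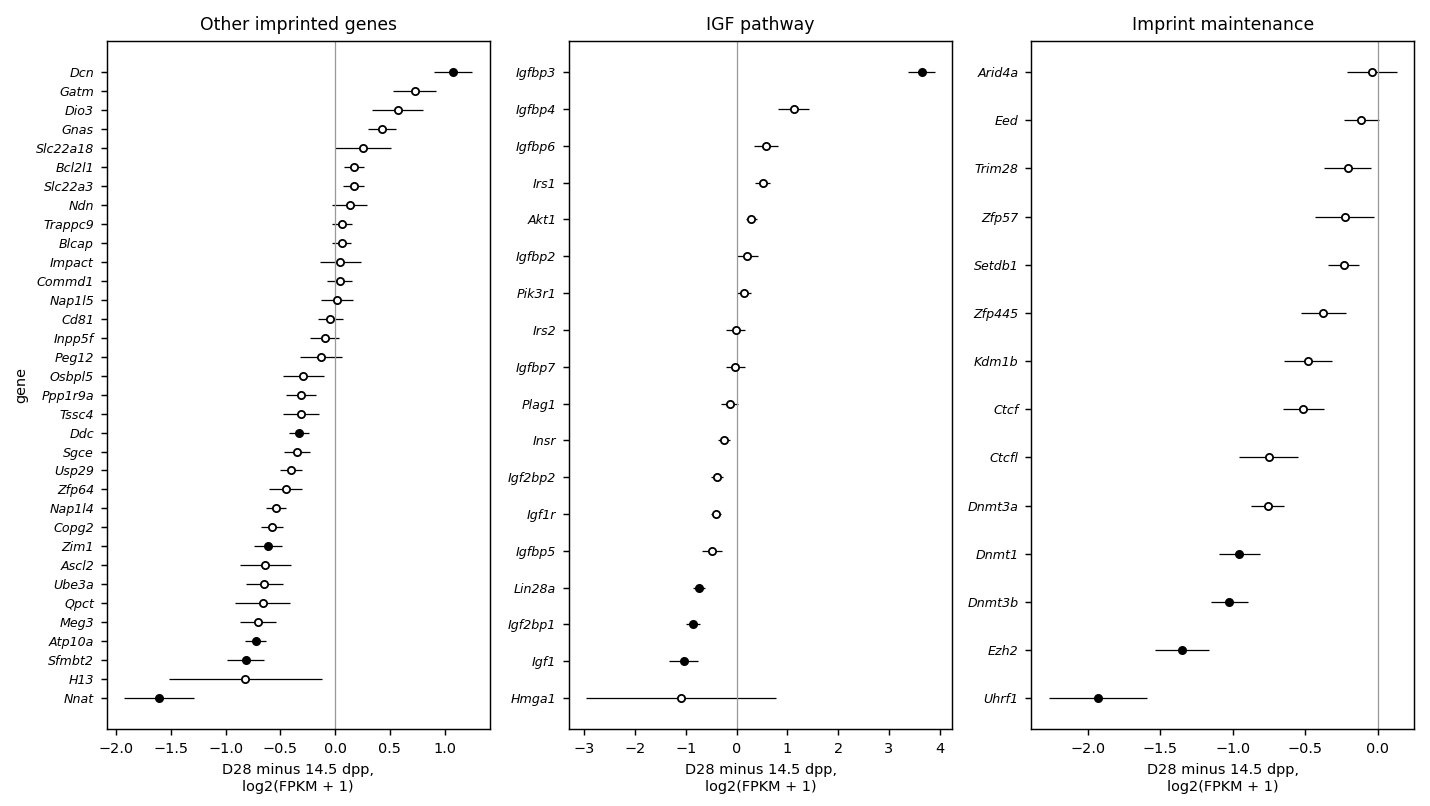
Difference of D28 from 14.5 dpp on the log2(FPKM + 1) scale for genes of 3 lists that passed the filter, as points with bars of 1 standard error from limma. Filled points were called changed. Igfbp3 lies furthest to the right, Dcn is the filled point to the right among other imprinted genes, and the filled points of the imprint maintenance list all lie to the left of 0.

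The genes with the course most like those of H19 and Igf2 were sought over the 10 group means on the log2 scale, among 12762 genes. For H19 they were Unc5b, a netrin receptor (r = 0.999), Plat, the tissue plasminogen activator (0.996), Trim2 (0.995), Pcdh19 (0.994) and Cachd1 (0.994). For Igf2 they were Igfbp3 (0.987), Spp1, which encodes osteopontin (0.985), Cyth4 (0.982), Elf1 (0.981) and Kcne3 (0.980). The correlation of H19 with Igf2 itself was 0.945. These coefficients are over 10 means that share their libraries, so they are given without a test.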

How the data were processed

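RNA of 18 testes and 12 libraries of cultured tissue was sequenced as 50 bp single reads. Per the labels and the study's methods, the authors aligned reads with STAR to rat build rn6, assembled them with StringTie and deposited 1 FPKM value per gene and library, made with Ballgown. Whether counting used strand is not given in the sources used here, and neither counts nor depths are known, so no counting interval is given. The library listed at 0 throughout was left out. From these FPKM values, log2(FPKM + 1) was tested with limma 3.58.1 in R 4.3.3, keeping genes whose median reached 0.5 FPKM in 1 group or more. D16, D22 and D28 against 14.5 dpp used the F test over the 3 contrasts for calls, after the study's design. Adjusted p are Benjamini-Hochberg over all genes tested. Python 3.11.15, numpy 2.4.6, pandas 2.3.3 and matplotlib 3.10.9 served for the rest. The fit of D16, D22 and D28 against 14.5 dpp was checked on simulated data. That check covered its single contrasts, and neither the F test, the ratio nor the other comparisons. Per the study's methods, testes of a group came from different rats and the RNA sets of a group were independent, which the labels do not state, so p-values measure the spread between these libraries. For H19 and Igf2 the change from D6 to D28, planned as a test, is described only. Members and lists were chosen with earlier results of these data known. Beside the 10 genes, the text names from 3 lists the 3 genes called higher and the 3 called lower with the largest difference at D28 against 14.5 dpp, and the 5 genes most like H19 and Igf2. Alternatives were the pseudocount, the filter, normalization, the samples in the fit, the variance trend, the ratio, a replicate block and leaving out each library.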

Additional observations from a re-analysis of the deposited data

Results flagged for a closer look

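The change from D6 to D28 was set against the change from 14.5 to 36.5 dpp, a span of the same age, and for 6 genes these changes differed by limma's test of the difference itself (adjusted p at most 0.0123). The difference was 2.83 on the log2 scale for Igf2r, whose D28 level differed from D6 by 0.37. It was 2.80 for Mest, whose level at 36.5 dpp was listed at 0 in 1 testis and whose level at 14.5 dpp differed between the 2 testes. For Plagl1 it was 1.83 and for Peg3 1.52, and both fell in culture as well as in vivo. For Dlk1 it was 1.301. For Cdkn1c it was 1.02, and after quantile normalization 0.50. The median difference over all genes was 0.63 and 76.5% of genes passed the same test. These values rest on the 2 testes of 14.5 dpp and were not scaled to the Sertoli cell markers.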

How the results depend on the processing

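Of 1356 single gene values under other settings, 1255 kept direction and call, 36 lost a call, 43 gained one and 22 changed sign. Of 2046 values with 1 library left out, 1960 kept both, 60 lost a call, 14 gained one, 2 moved beyond the spread and 10 changed sign. Of the 22 sign changes under other settings, 14 came from scaling to the Sertoli cell markers. That scaling was applied only to the in vivo ages and to the comparisons with testes of the same age. How it would move the time course or the other comparisons was not tested. Against 8.5 dpp, that scaling gave -0.38 for Cdkn1c and -0.28 for Grb10 at 14.5 dpp, 0.045 for Cdkn1c at 24.5 dpp, 0.14 for Igf2 and 1.61 for Grb10 at 30.5 dpp, 0.012 for Igf2, 0.33 for Cdkn1c and 1.31 for Grb10 at 36.5 dpp, and 1.40 for Cdkn1c and 1.07 for Grb10 at 53.5 dpp. Beside testes of the same age it gave -0.35 (D22) and -0.23 (D28) for Peg3 and -1.23 (D22) and -1.80 (D28) for Cdkn1c, and 8 calls in place of 16.

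Other sign changes were in values near 0. Quantile normalization gave -0.093 for Cdkn1c at 14.5 dpp, 0.00321 for Dlk1 at D28 against 14.5 dpp and -0.074 for the difference between time courses of Grb10. Scaling to the same summed FPKM gave 0.045 for Igf2r at 14.5 dpp and, at D6, 0.012 against 8.5 dpp and -0.033 against 14.5 dpp. With 1 library left out, Cdkn1c at 14.5 dpp ran from -0.047 to 0.10, Dlk1 at D6 against 8.5 dpp from -0.17 to 0.16, Igf2r at D6 against 14.5 dpp from -0.00112 to 0.047, Peg3 at D16 against 14.5 dpp from -0.26 to 0.018, Plagl1 there from -0.15 to 0.22 and Dlk1 at D28 against 14.5 dpp from -0.20 to 0.11. The cause of these changes was not tested.

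Counts of calls moved mainly with the ratio. Without it, calls were 23 in place of 15 for culture against 8.5 dpp, 3 in place of 1 for D6 and 18 in place of 10 for D16, D22 and D28 against 14.5 dpp, and 5 in place of 3 between D6 and D28. The 18 rest on the F test alone. They include Snurf at D22 and D28, with a difference of 0, and Peg3 at D16 (limma adjusted p = 0.612) and D22 (limma adjusted p = 0.138). Counts for the later times against 14.5 dpp and for the same age, here and below, also hold the forced call of Snurf at D16. All 10 groups in 1 fit gave 2 calls for D6 against 14.5 dpp, and quantile normalization gave 6 for the later times. With 1 library left out, calls ran from 34 to 39 in vivo (34 with all), 14 to 17 for culture against 8.5 dpp, 1 to 2 for D6 against 14.5 dpp, 4 to 10 for the later times, 15 to 17 for the same age, and stayed at 3 between D6 and D28 and at 6 for the time course. The lowest of 4 came without 14.5 dpp replicate 1 or without D22 replicate 2.

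Whether same-numbered libraries share animals or handling is not stated in the sources, and weak correlations cannot exclude it. Same-numbered libraries of culture groups correlated in their deviations at -0.131 to 0.218, and 5 of 18 were over 0.1. The highest was that of replicate 2 of D6 and D28. With the replicate block, calls were 34 in vivo, 16 for culture against 8.5 dpp, 1 for D6 and 10 for later times against 14.5 dpp, 16 for the same age, 3 between D6 and D28 and 6 for the time course, and the block gave -0.017 for Cdkn1c at 14.5 dpp and 0.075 for Dlk1 at D28 against 14.5 dpp. Depth is unknown, so the low values of Mest and Snurf carry no counting error here.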
